A study of Mus musculus with 9 samples.

Results

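The 37 genes described here encode enzymes that break down amino acids in mouse liver, and they were taken by symbol from a deposited RNA-seq table of 54007 rows, each symbol matched to its Ensembl gene identifier. All 37 were found, and all 37 were among the 10988 genes that were tested, those reaching 1 FPKM or more in 3 or more libraries. By route they comprise 6 enzymes of tyrosine and phenylalanine, 6 of tryptophan and kynurenine, 13 of the branched-chain amino acids, 3 of the sulfur amino acids, 5 of glycine and glyoxylate, 3 of proline and 1 of lysine. The livers came from C57BL/6 mice at postnatal day 98. The study assigned 45 mice at 6 weeks of age to 3 groups of 15, and each group gave 3 libraries. The control group (replicates 1, 2 and 4) carries no other treatment in the labels, the group labelled HFD (replicates 1, 2 and 3) received a high-fat diet alone, and the HFD+Pc group (replicates 1, 3 and 4) received the diet with gavage of the bacterium *Papillibacter cinnamivorans*. The labels name neither the fat content, the dose, nor a vehicle gavage in the other groups. Whether each library came from a single animal or from pooled animals is not labelled, so p-values here reflect variation among libraries, which may be technical in part.

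The liver degrades most dietary amino acids, passing their nitrogen to the urea cycle and their carbon to pyruvate, acetyl-CoA and intermediates of the citric acid cycle. The aromatic routes open the rings of tyrosine and tryptophan with dioxygenases, and the tryptophan route also feeds NAD synthesis. The branched-chain amino acids are first transaminated mainly outside the liver, and their keto acids are then oxidised by a mitochondrial dehydrogenase complex that liver expresses strongly. Glycine is split by the mitochondrial glycine cleavage system, glyoxylate is removed by transaminases, and cysteine is oxidised toward taurine.

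Read totals recovered from the FPKM values were 16279985 to 18641454 per library. A count of 3 reads over 1 kb equals 0.160 to 0.179 FPKM, a detection floor for counting error alone, and every enzyme lay above it in every library. FPKM is per length, so levels set beside each other between genes also depend on the annotated exon length. Levels are means ± SD (n = 3). Differences, given ± SE, come from limma on log2(FPKM + 1). A difference is called where its Benjamini-Hochberg adjusted p, taken over the 10988 genes, is under 0.05. HFD replicate 3 stood apart from the other HFD libraries: on the second principal component it lay at -3.94, with HFD replicates 1 and 2 at -17.6 and -18.9 and every other library above 0. Summed hepatocyte markers were 62970 to 64020 FPKM in control, 45513 to 48403 in HFD and 51452 to 66861 in HFD+Pc. Of these 10 markers 1 was called lower in HFD and 2 in HFD+Pc than in control. Periportal markers summed to 1800 to 2095, 994 to 1210 and 962 to 1365 FPKM in the same order, with 3 of 10 lower in HFD and 4 of 10 lower in HFD+Pc than in control. Pericentral markers summed to 3844 to 4992, 5182 to 6012 and 5891 to 6468 FPKM, with 1 of 10 higher in HFD, and 4 higher and 1 lower in HFD+Pc. Adipocyte markers summed to 4.32 to 6.13, 12.6 to 37.01 and 4.95 to 10.98 FPKM, with 1 of 3 tested called higher in each comparison with control. Red blood cell markers summed to 241 to 379, 220 to 344 and 161 to 222 FPKM, with 2 of 4 called lower in HFD+Pc than in control. Endothelial markers summed to 93.2 to 106, 65.2 to 82.3 and 74.7 to 77.2 FPKM, with 3 of 10 called lower in each comparison with control. B and plasma cell markers summed to 24.03 to 36.3, 52.5 to 86.7 and 29.2 to 40.7 FPKM, with 2 of 5 tested higher in HFD and 0 called in HFD+Pc against control. Kupffer cell and macrophage markers summed to 346 to 479, 356 to 480 and 244 to 393 FPKM. All 10 of their differences were negative in HFD+Pc against HFD, with 0 called. Against control 1 of the 10 was called higher in HFD and 1 lower in HFD+Pc. Immediate early genes summed to 46.3 to 108, 34.4 to 40.7 and 40.8 to 47.8 FPKM. Of 6 tested, 2 were lower in HFD, and 4 lower and 1 higher in HFD+Pc than in control. Of all tested genes 9.97% were called in HFD against control and 23.1% in HFD+Pc against control. The part of these shifts in the results on the enzymes was not tested, and in bulk tissue fewer cells of a type and less RNA per cell cannot be told apart.

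In control liver the enzyme transcripts ranged from Cdo1 at 1058 ± 13.03 FPKM to Auh at 3.07 ± 0.179 FPKM. After Cdo1 came Hpd at 890.0 ± 42.4, Tat at 533 ± 145 and Tdo2 at 443 ± 46.6 FPKM. The intervals of 1 SD of Tat and Tdo2 overlapped, whereas those of Cdo1, Hpd and Tat did not. Near the lower end were Mccc1, a subunit of the leucine carboxylase, and Bcat2, the branched-chain aminotransferase: Mccc1 stood at 4.15 ± 0.1097 and Bcat2 at 4.52 ± 0.481 FPKM. Annotated exon lengths, which enter these levels, were 10952 bases for Mccc1, 9580 for Auh and 3900 for Bcat2, beside 1644 for Cdo1.

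HFD against control, the comparison of diet alone, was taken first. Agxt2, a mitochondrial glyoxylate and dimethylarginine aminotransferase, Kmo, the kynurenine hydroxylase, and Aldh6a1, the last dehydrogenase of valine breakdown, rose, and Acmsd, a decarboxylase that draws a tryptophan intermediate away from NAD synthesis, fell. Acmsd fell to 30.6% of its control mean, and the 3 that rose reached 135% to 144% of theirs. These 4 of 37 enzymes (10.8%) stand beside 9.97% of all tested genes, the 3 higher beside 4.61% and the 1 lower beside 5.35%. The groups did not overlap for 17 enzymes, 12 higher and 5 lower in HFD, beside 32.9% of all tested genes. The median difference of the 37 was 0.043 and that of all tested genes -0.00087, and 15 of the 37 (40.5%) had an unadjusted p under 0.05, beside 27.8% of all tested genes. Limma-voom on recovered reads called 12 of the 37, 11 higher and 1 lower, 8 more than limma on FPKM, beside 13.4% of the 10588 genes in that fit. The share of calls over all genes that were higher was 46.3% here, 59.9% with FPKM rescaled to an equal sum per library and 71.0% with limma-voom.

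HFD+Pc against HFD sets the bacterium beside the same diet without it. It shares its HFD libraries with the first comparison, and limma called 0 of the 37 enzymes. Of all tested genes 0.628% were called, 0.182% higher and 0.446% lower. An unadjusted p under 0.05 was reached by 4 enzymes (10.8%), Bckdha, Bckdhb, Agxt and Qdpr, beside 15.6% of all tested genes. Limma-voom on recovered reads called 1, Bckdha, beside 1.69% of all genes in that fit. The groups did not overlap for 8 enzymes (21.6%), 5 higher and 3 lower in HFD+Pc, beside 19.8% of all tested genes. Of the calls over all genes 29.0% were higher, 16.8% with FPKM rescaled to an equal sum per library and 19.6% with limma-voom. The median difference of the 37 was 0.040, beside 0.0094 over all tested genes.

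The third comparison, HFD+Pc against control, takes the diet and the bacterium together and shares its control libraries with the first. Here 12 of the 37 enzymes passed (32.4%), beside 23.1% of all tested genes. The 7 that rose were Agxt2, Aldh6a1, Hibch, Gcsh, Bckdhb, Kmo and Acadsb, beside 11.1% of all tested genes called higher. The 5 that fell were Bckdha, Hpd, Acmsd, Cdo1 and Prodh, beside 11.9% called lower. The groups did not overlap for 19 enzymes (51.4%), 13 higher and 6 lower, beside 42.8% of all tested genes. The median difference was 0.085, beside 0.0083 over all tested genes. By route it was 0.27 in the branched-chain and the glycine routes, 0.12 in proline, 0.041 in tyrosine and phenylalanine, -0.027 in tryptophan, -0.27 in lysine, which holds 1 enzyme, and -0.35 in sulfur.

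**Figure D1:**
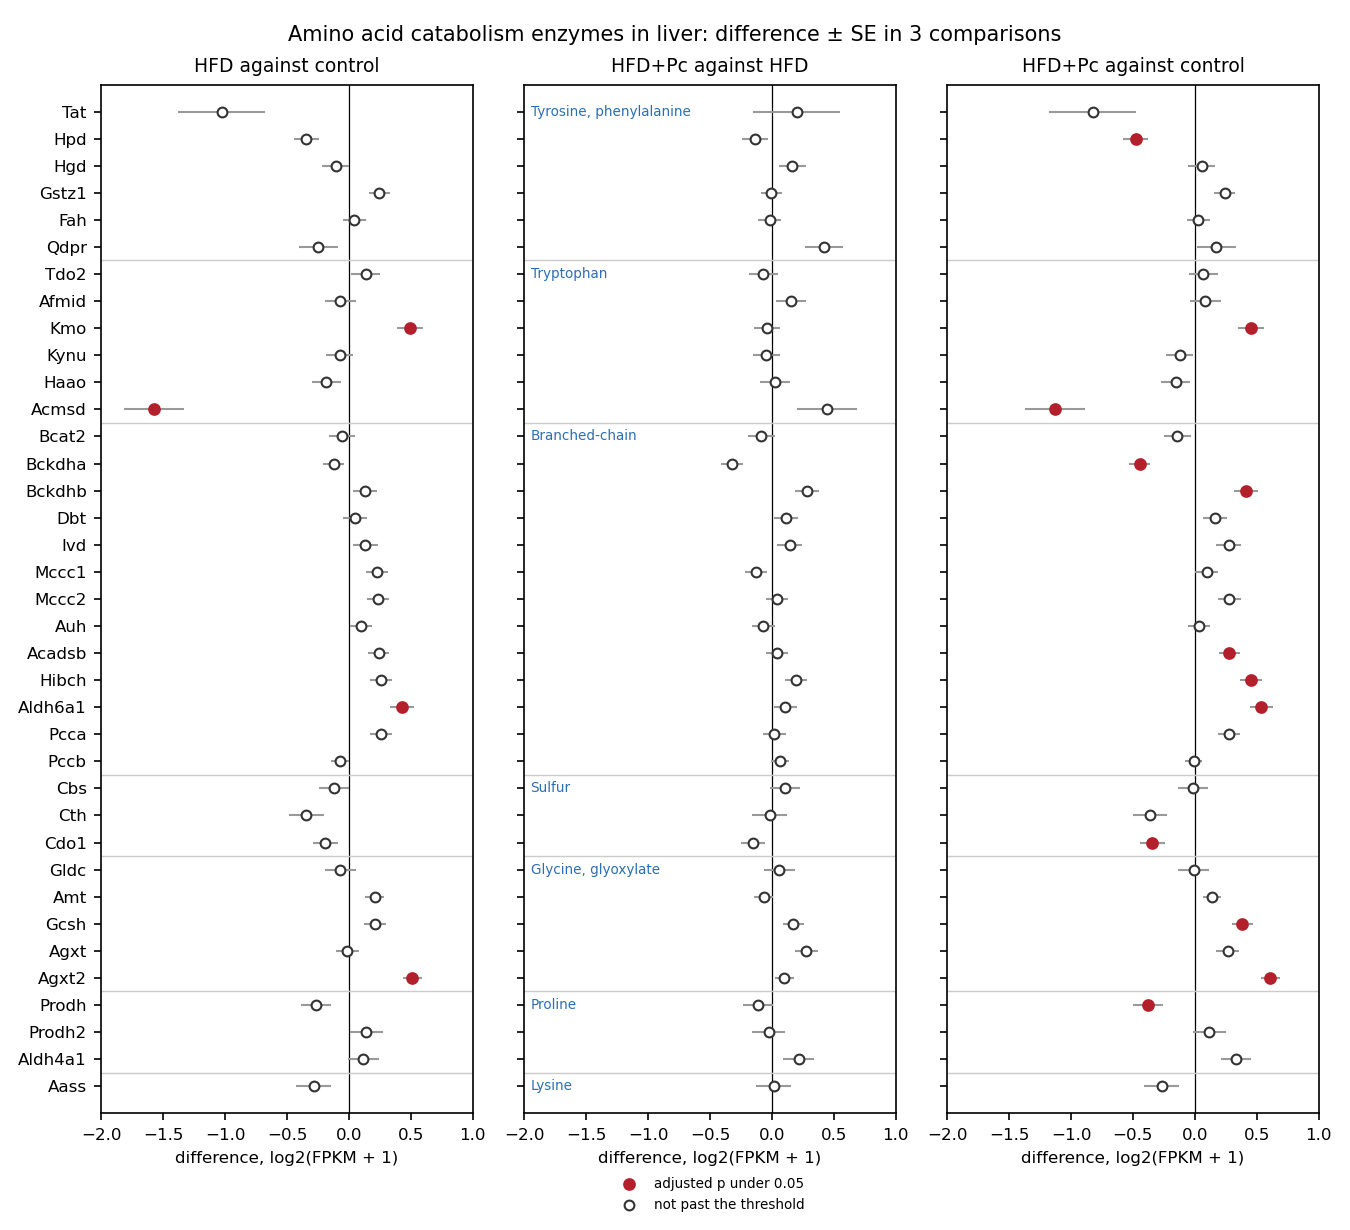
Difference ± SE on the log2(FPKM + 1) scale for each of the 37 enzymes, grouped by route, in the 3 comparisons, with filled points for a limma adjusted p under 0.05. There are 4 filled points in the left panel, 0 in the middle panel and 12 in the right panel.

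The 4 promoters below belong to enzymes whose values carry the report: Agxt2 and Kmo, called in both comparisons with control, and the pair of subunits Bckdha and Bckdhb. Each is the RefSeq sequence on GRCm38.p6 from 250 bases before to 50 bases after an annotated start, 5′ to 3′ on the gene's strand, with capitals marking a motif that was searched. Agxt2 lies at chr15:10358283-10358582, plus strand, Kmo at chr1:175631943-175632242, plus strand, Bckdha at chr7:25658712-25659011, minus strand and Bckdhb at chr9:83924887-83925186, plus strand. A second start is listed for Agxt2 and for Bckdhb, and the first by position is shown. The FPKM table was built on another assembly, and no coordinates were carried between the builds.
Agxt2: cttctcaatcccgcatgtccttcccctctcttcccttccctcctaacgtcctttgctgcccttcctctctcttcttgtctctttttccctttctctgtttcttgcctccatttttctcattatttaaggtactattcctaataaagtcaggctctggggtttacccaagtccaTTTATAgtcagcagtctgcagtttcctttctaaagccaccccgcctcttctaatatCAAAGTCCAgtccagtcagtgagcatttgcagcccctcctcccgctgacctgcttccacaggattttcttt
Kmo: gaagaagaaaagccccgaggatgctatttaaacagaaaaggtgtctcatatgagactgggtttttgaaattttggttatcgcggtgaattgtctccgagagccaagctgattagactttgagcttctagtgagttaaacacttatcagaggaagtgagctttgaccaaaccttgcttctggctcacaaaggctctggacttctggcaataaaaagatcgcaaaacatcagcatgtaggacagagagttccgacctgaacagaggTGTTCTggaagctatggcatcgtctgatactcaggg
Bckdha: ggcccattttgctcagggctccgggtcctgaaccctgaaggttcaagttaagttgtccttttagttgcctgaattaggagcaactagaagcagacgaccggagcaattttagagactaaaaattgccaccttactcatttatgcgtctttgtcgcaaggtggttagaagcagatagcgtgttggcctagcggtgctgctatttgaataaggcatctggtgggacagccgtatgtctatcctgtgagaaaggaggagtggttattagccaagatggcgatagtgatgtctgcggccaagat
Bckdhb: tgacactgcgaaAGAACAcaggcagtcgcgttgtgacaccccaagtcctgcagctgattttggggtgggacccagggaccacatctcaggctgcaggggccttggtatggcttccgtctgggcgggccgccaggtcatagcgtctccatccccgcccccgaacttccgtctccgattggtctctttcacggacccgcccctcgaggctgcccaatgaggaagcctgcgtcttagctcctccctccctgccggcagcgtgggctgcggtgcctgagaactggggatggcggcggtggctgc

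Promoters were listed for 33 of the 37 enzymes, 39 in all. Each motif was searched by exact letters on both strands, in these and in all 32851 listed promoters. The HNF4A motif CAAAGTCCA was found in 0.475% of all promoters and in 2 of the 39, both of them overlapping windows of Agxt2. The TATA motif TATAAA, held by 13.6% of all promoters and 4 of the 39, was in Agxt2, Hgd and Tdo2. The glucocorticoid receptor core TGTTCT was in 7 of the 39 (17.9%) beside 19.0% of all promoters, the Kmo and Bckdhb promoters above among them. The C/EBP motif TTGCNNAA was in 6 (15.4%) beside 10.8%, and the KLF motif CACACCC in 4 (10.3%) beside 7.95%. The CREB motif TGACGTCA was in 0 of the 39 beside 1.79% of all promoters. A match describes letters in this window and is not a measured binding site. The Bckdha window held none of the 6 motifs.

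In the tryptophan route 2 of 6 enzymes (33.3%) passed in each comparison with control, 1 higher and 1 lower. These stand beside 9.97% of all tested genes called in HFD and 23.1% in HFD+Pc. Kmo hydroxylates kynurenine on the way to quinolinate and NAD. It stood at 60.1, 69.8 and 69.3 FPKM in the control libraries, 90.8, 96.9 and 93.2 in the HFD libraries and 88.7, 104 and 81.9 in the HFD+Pc libraries. All HFD and HFD+Pc libraries lay above all control libraries, and the HFD and HFD+Pc ranges overlapped. Kmo rose by 0.49 ± 0.11, limma adjusted p = 0.0235 in HFD. It rose by 0.45 ± 0.11, limma adjusted p = 0.0156 in HFD+Pc against control, and the HFD+Pc against HFD difference was -0.041 ± 0.11. The HFD call held in 4 of the 9 fits that left out 1 library: it was lost without control replicate 1 or 2 and without any one HFD library, with adjusted p up to 0.0775 and 0.0538 without HFD replicate 3. The HFD+Pc call was lost without control replicate 1 or HFD+Pc replicate 3, with adjusted p up to 0.0565.

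Acmsd decarboxylates aminocarboxymuconate semialdehyde, the same intermediate that otherwise closes to quinolinate. It stood at 15.1, 18.6 and 26.8 FPKM in the control libraries, 3.93, 6.21 and 8.36 in the HFD libraries and 8.26, 8.56 and 8.47 in the HFD+Pc libraries. Every HFD and HFD+Pc library lay under every control library. The HFD libraries spread widely, and the HFD+Pc libraries were close together near the level of HFD replicate 3. Acmsd fell in HFD (-1.57 ± 0.24, limma adjusted p = 0.00943), to 30.6% of the control mean. It fell in HFD+Pc against control as well (-1.13 ± 0.24, limma adjusted p = 0.0123), to 41.8% of the control mean. Both calls held in all 9 fits that left out 1 library. HFD+Pc against HFD gave 0.44 ± 0.24 with adjusted p 0.419. Acmsd is known as a kidney and liver enzyme, and the 5 kidney tubule markers summed to no more than 0.143 FPKM in any library, with Slc22a6 at 0. Its recovered reads, 204 in the lowest library, were the fewest of the 37 enzymes.

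The ratio of Kmo to Acmsd within a library was 3.98, 3.74 and 2.59 in control, 23.1, 15.6 and 11.1 in HFD and 10.7, 12.1 and 9.67 in HFD+Pc. This ratio was chosen after the values were seen and has no test. The control libraries lay lowest, and the HFD and HFD+Pc ranges overlapped at HFD replicate 3.

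The other 4 tryptophan enzymes were not called in any comparison. Tdo2, which opens the tryptophan ring, had 443 ± 46.6 FPKM in control, 487 ± 50.3 in HFD and 463 ± 25.7 in HFD+Pc. Afmid, which hydrolyses N-formylkynurenine, had 13.6 ± 2.100 FPKM in control, 12.9 ± 1.83 in HFD and 14.4 ± 0.3495 in HFD+Pc. It shares 44.2% of its exon bases with the same-strand model Gm20708, which is listed at 0 in all libraries, so its reads may be divided by the counting. Kynu, kynureninase, had 36.7 ± 1.57 FPKM in control, 34.9 ± 4.61 in HFD and 33.7 ± 3.23 in HFD+Pc. Haao, which opens the ring of 3-hydroxyanthranilate, had 75.6 ± 5.04 FPKM in control, 66.5 ± 4.41 in HFD and 68.2 ± 10.3 in HFD+Pc. The largest difference of these 4 in size was -0.18, that of Haao in HFD against control. The steps just before and just after Kmo showed no called difference, and a p that misses the threshold does not show equal levels.

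In the tyrosine and phenylalanine route 0 of 6 enzymes passed in HFD against control, beside 9.97% of all tested genes. In HFD+Pc against control 1 fell, beside 11.9% of all tested genes called lower. Hpd, the dioxygenase that turns 4-hydroxyphenylpyruvate into homogentisate, stood at 841, 909 and 920.0 FPKM in the control libraries, 702, 711 and 689 in the HFD libraries and 569, 679 and 672 in the HFD+Pc libraries. The control libraries were highest, then HFD, then HFD+Pc, and no pair of groups overlapped. Hpd fell in HFD+Pc against control (-0.48 ± 0.10, limma adjusted p = 0.0116), to 71.9% of the control mean and in all 9 fits that left out 1 library. This call was lost with the replicate block (limma adjusted p 0.0598). In HFD against control the difference was -0.34 ± 0.10, limma adjusted p = 0.0637, and HFD+Pc against HFD gave -0.13 ± 0.10 with adjusted p 0.5795.

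Tat, the aminotransferase of the first step and a textbook glucocorticoid target, varied widely between libraries. It stood at 372, 577 and 652 FPKM in the control libraries, 186, 234 and 378 in the HFD libraries and 211, 461 and 256 in the HFD+Pc libraries. HFD replicate 3 lay above control replicate 1, and HFD+Pc replicate 3 lay far above the other HFD+Pc libraries, so the groups overlapped in every comparison. The difference was -1.03 ± 0.35, limma adjusted p = 0.09704, in HFD against control, and -1.31 with adjusted p 0.0671 without HFD replicate 3 (range over all alternatives 0.0292 to 0.242). In HFD+Pc against control it was -0.83 ± 0.35, limma adjusted p = 0.117 (range over all alternatives 0.0199 to 0.302). Neither passed, and of the alternatives run only the replicate block called Tat, at -1.24 in HFD (adjusted p 0.0292) and -1.07 in HFD+Pc (adjusted p 0.0199) against control.

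Qdpr, which regenerates the tetrahydrobiopterin cofactor of the aromatic amino acid hydroxylases, stood at 128, 102 and 135 FPKM in the control libraries, 89.8, 92.6 and 126 in the HFD libraries and 120.2, 147 and 143 in the HFD+Pc libraries. HFD replicates 1 and 2 lay under all other libraries, and HFD replicate 3 lay inside the control and HFD+Pc ranges. HFD+Pc against HFD gave 0.42 ± 0.16, limma adjusted p = 0.241, and 0.57 with adjusted p 0.0934 without HFD replicate 3 (range over all alternatives 0.0934 to 0.512). Gstz1, maleylacetoacetate isomerase, had 116 ± 3.44 FPKM in control, 138 ± 4.53 in HFD and 138 ± 8.58 in HFD+Pc, with every HFD and HFD+Pc library above every control library. Its differences from control, 0.24 and 0.24, had adjusted p 0.0897 and 0.0619. Hgd, homogentisate dioxygenase, had 214 ± 13.3 FPKM in control, 198 ± 16.1 in HFD and 223 ± 23.8 in HFD+Pc. Fah, the last enzyme of the route, had 238 ± 11.8 FPKM in control, 245 ± 5.09 in HFD and 242 ± 19.7 in HFD+Pc. Both had overlapping groups in all 3 comparisons.

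In the branched-chain route 1 of 13 enzymes (7.69%) rose in HFD, beside 4.61% of all tested genes. In HFD+Pc against control 4 rose, beside 11.1% of all tested genes, and 1 fell, beside 11.9%. The 2 subunits of the first enzyme (E1) of the branched-chain keto acid dehydrogenase complex went opposite ways. Bckdha, the E1 alpha subunit, stood at 33.7, 37.03 and 37.7 FPKM in the control libraries, 32.5, 35.1 and 31.7 in the HFD libraries and 24.00, 27.7 and 27.1 in the HFD+Pc libraries. All HFD+Pc libraries lay under all others, and the control and HFD ranges overlapped. Bckdha fell in HFD+Pc against control (-0.45 ± 0.086, limma adjusted p = 0.00766), in all 9 fits that left out 1 library. HFD against control gave -0.12 ± 0.086 with adjusted p 0.383. HFD+Pc against HFD gave -0.32 ± 0.086, limma adjusted p = 0.119, not called. Limma-voom on recovered reads called Bckdha at -0.41 with adjusted p 0.0446 (range over all alternatives 0.0446 to 0.301). The median difference over all genes was -0.066 in that limma-voom fit, beside 0.0094 in the main fit. Bckdha shares 61.7% of its exon bases with B3gnt8 on the opposite strand, whose mean was 0.221 FPKM, and the strandedness of the libraries is not given in the sources used here.

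Bckdhb, the E1 beta subunit, stood at 35.4, 36.1 and 31.8 FPKM in the control libraries, 38.6, 34.6 and 40.3 in the HFD libraries and 42.3, 50.6 and 45.99 in the HFD+Pc libraries. The HFD+Pc libraries lay above all others, and the control and HFD ranges overlapped. Bckdhb rose in HFD+Pc against control (0.41 ± 0.10, limma adjusted p = 0.0155), a call lost without control replicate 4 or HFD+Pc replicate 3, with adjusted p up to 0.0606. HFD+Pc against HFD gave 0.28 ± 0.10, limma adjusted p = 0.208. The ratio of Bckdhb to Bckdha within a library was 1.05, 0.975 and 0.843 in control, 1.18, 0.988 and 1.27 in HFD and 1.76, 1.83 and 1.70 in HFD+Pc. The 3 HFD+Pc ratios lay above all 6 others, and the control and HFD ratios overlapped. This ratio too was chosen after the values were seen and has no test.

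**Figure D2:**
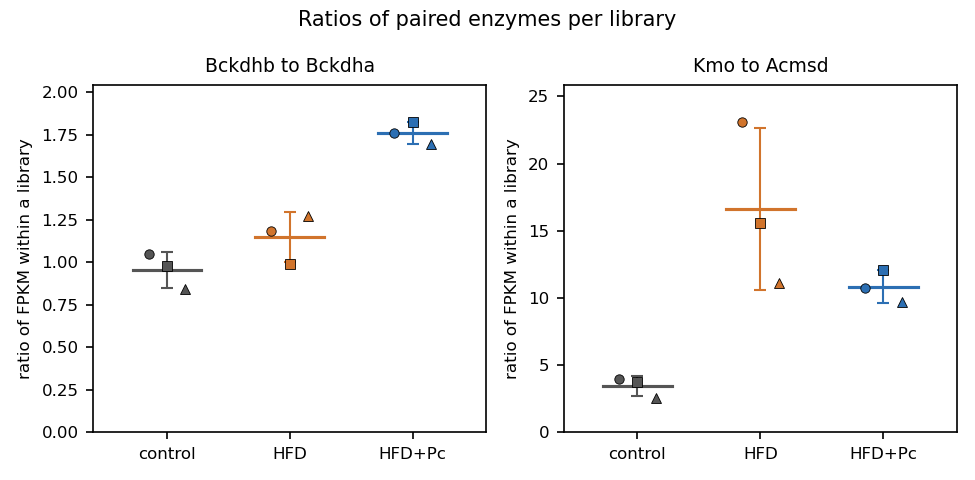
Ratio of FPKM within a library for Bckdhb to Bckdha and for Kmo to Acmsd, with a point per library in replicate order and a line and bar for the mean ± SD of 3 libraries. The Bckdhb to Bckdha ratio lies between 1.70 and 1.83 in HFD+Pc, above the other 6 libraries, and the Kmo to Acmsd ratio lies under 4 in the control libraries alone.

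Around this pair, Dbt, the E2 core of the complex, had 38.2 ± 2.11 FPKM in control, 39.5 ± 3.54 in HFD and 42.9 ± 3.49 in HFD+Pc and was not called. Dld, the E3 subunit that the complex shares with other dehydrogenases and the glycine cleavage system, is not among the 37. Dld rose from 36.2 ± 0.8002 to 47.6 ± 1.84 FPKM in HFD+Pc against control (0.39 ± 0.081, limma adjusted p = 0.0105). Neither Bckdk, the kinase that inactivates E1, at 0.088 ± 0.10, nor Ppm1k, the phosphatase that restores it, at 0.50 ± 0.17, passed in that comparison (adjusted p 0.542 and 0.0614). Bcat2, the mitochondrial aminotransferase of the step before, had 4.52 ± 0.481 FPKM in control, 4.33 ± 0.687 in HFD and 3.997 ± 0.208 in HFD+Pc and was not called. Bcat2 shares 15.9% of its exon bases with the opposite-strand model 0610005C13Rik, whose mean was 31.4 FPKM, above that of Bcat2 itself, so the Bcat2 level is uncertain.

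In valine breakdown Aldh6a1, which oxidises methylmalonate semialdehyde, stood at 80.7, 79.5 and 69.3 FPKM in the control libraries, 105, 97.3 and 107 in the HFD libraries and 117, 115 and 103 in the HFD+Pc libraries. Every HFD and HFD+Pc library lay above every control library, and the HFD and HFD+Pc ranges overlapped. Aldh6a1 rose in HFD (0.43 ± 0.095, limma adjusted p = 0.0257) and in HFD+Pc against control (0.54 ± 0.095, limma adjusted p = 0.00562). The first call was lost without any one control library or without HFD replicate 1 or 3, with adjusted p up to 0.0706 and 0.0661 without HFD replicate 3, and the second held in all 9 fits. Aldh6a1 shares 18.6% of its exon bases with the opposite-strand gene Bbof1, whose mean was 0.118 FPKM.

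Hibch, which frees 3-hydroxyisobutyrate from CoA, stood at 11.3, 11.2 and 13.2 FPKM in the control libraries, 14.5, 13.6 and 15.00 in the HFD libraries and 17.6, 17.1 and 15.2 in the HFD+Pc libraries. Control lay lowest, HFD in the middle and HFD+Pc highest, with no overlap between any pair of groups. Hibch rose in HFD+Pc against control (0.45 ± 0.088, limma adjusted p = 0.00796), to 139.9% of the control mean and in all 9 fits. This call was lost with the replicate block (limma adjusted p 0.0629). Against control, HFD gave 0.26 ± 0.088, limma adjusted p = 0.0953. Hibadh, the dehydrogenase between Hibch and Aldh6a1 and not among the 37, rose from 25.3 ± 1.28 to 35.5 ± 2.13 FPKM in HFD (0.47 ± 0.085, limma adjusted p = 0.0139) and to 36.9 ± 2.800 FPKM in HFD+Pc (0.53 ± 0.085, limma adjusted p = 0.00402). Both calls of Hibadh held in all 9 fits that left out 1 library.

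Acadsb, the acyl-CoA dehydrogenase of isoleucine, stood at 17.8, 19.6 and 18.4 FPKM in the control libraries, 20.96, 22.9 and 22.5 in the HFD libraries and 23.9, 24.2 and 20.3 in the HFD+Pc libraries. The control libraries lay under all others. Acadsb rose in HFD+Pc against control (0.28 ± 0.086, limma adjusted p = 0.0444), but it passed in 1 of the 9 fits that left out 1 library, the one without HFD+Pc replicate 4, and the highest adjusted p was 0.146. Pcca and Pccb, the alpha and beta subunits of propionyl-CoA carboxylase, had different patterns. Pcca had 14.7 ± 0.715 FPKM in control, 17.8 ± 1.796 in HFD and 18.04 ± 1.42 in HFD+Pc, with every HFD and HFD+Pc library above every control library. Its difference in HFD+Pc against control, 0.28 ± 0.091, limma adjusted p = 0.0554, passed in 2 of the 9 fits that left out 1 library, those without HFD replicate 3 (adjusted p 0.0378) or HFD+Pc replicate 1. Pcca passed there with array weights and with limma-voom as well (adjusted p 0.0202 and 0.0368). Pccb had 69.7 ± 1.82 FPKM in control, 66.2 ± 1.77 in HFD and 69.2 ± 2.17 in HFD+Pc. The difference of Pccb in the same comparison was -0.011 ± 0.072.

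None of the 4 leucine enzymes passed in the main fit. Ivd, isovaleryl-CoA dehydrogenase, had 40.3 ± 2.83 FPKM in control, 44.2 ± 0.8699 in HFD and 49.2 ± 6.37 in HFD+Pc. Mccc1 and Mccc2, the subunits of the biotin-dependent methylcrotonyl-CoA carboxylase, had 4.15 ± 0.1097 FPKM in control, 5.02 ± 0.407 in HFD and 4.52 ± 0.577 in HFD+Pc, and 18.6 ± 0.815 FPKM in control, 22.1 ± 0.931 in HFD and 22.8 ± 2.63 in HFD+Pc. Auh, methylglutaconyl-CoA hydratase, had 3.07 ± 0.179 FPKM in control, 3.38 ± 0.455 in HFD and 3.16 ± 0.164 in HFD+Pc. In HFD+Pc against control Mccc2 (0.28 ± 0.091, limma adjusted p = 0.0524) and Ivd (0.27 ± 0.10, limma adjusted p = 0.0775) passed in 1 of the 9 fits that left out 1 library, the one without HFD+Pc replicate 1. The subunit Mccc1 had 0.10 ± 0.091, limma adjusted p = 0.474 in that comparison. With quantile normalization and with array weights Mccc2 and Ivd passed there as well, and Mccc2 also with limma-voom. Their limma adjusted p over all alternatives ranged from 0.0176 to 0.173 for Mccc2 and from 0.0311 to 0.242 for Ivd. In HFD against control limma-voom called Mccc1 and Mccc2 (adjusted p 0.0388 and 0.0367).

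**Figure D3:**
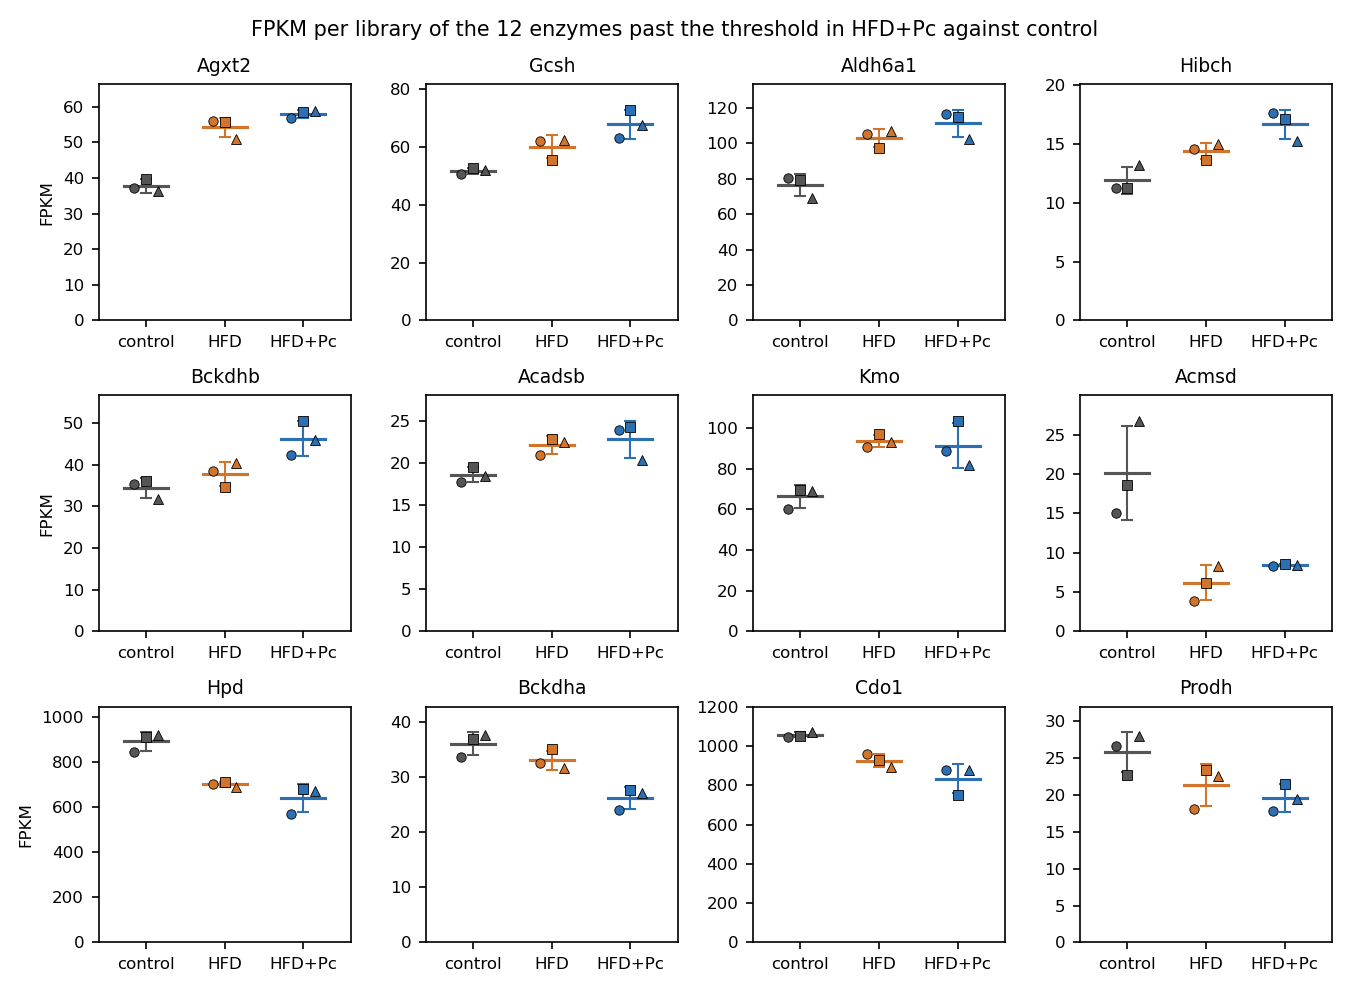
FPKM per library (linear axes from 0) of the 12 enzymes called in HFD+Pc against control, with a point per library in replicate order and a line and bar for the mean ± SD of 3 libraries. Control and HFD+Pc do not overlap in any panel, whereas HFD overlaps control for Bckdha, Bckdhb and Prodh.

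In the glycine and glyoxylate route 1 of 5 enzymes rose in HFD, beside 4.61% of all tested genes. In HFD+Pc against control 2 rose, beside 11.1% of all tested genes. Agxt2 stood at 37.1, 39.8 and 36.3 FPKM in the control libraries, 55.96, 55.6 and 51.02 in the HFD libraries and 56.8, 58.5 and 58.9 in the HFD+Pc libraries. The 3 groups did not overlap, with control lowest and HFD+Pc highest, although HFD replicate 1 and HFD+Pc replicate 1 lay less than 1 FPKM apart. Agxt2 rose in HFD (0.51 ± 0.076, limma adjusted p = 0.00773) to 144% of the control mean. It rose in HFD+Pc against control (0.61 ± 0.076, limma adjusted p = 0.001701) to 154% of the control mean, the lowest adjusted p among the 37 enzymes in any comparison. Both calls held in all 9 fits that left out 1 library, and the HFD call was lost with the replicate block (limma adjusted p 0.0542). HFD+Pc against HFD gave 0.10 ± 0.076, limma adjusted p = 0.585.

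Agxt, the peroxisomal glyoxylate aminotransferase whose loss causes primary hyperoxaluria in humans, stood at 114, 118 and 128 FPKM in the control libraries, 114, 129.5 and 112 in the HFD libraries and 135, 151 and 147 in the HFD+Pc libraries. The HFD+Pc libraries lay above all others, and control and HFD overlapped. HFD+Pc differed from HFD by 0.28 ± 0.094, limma adjusted p = 0.201, and from control by 0.27 ± 0.094, limma adjusted p = 0.0678, neither called. The H protein of the glycine cleavage system, Gcsh, stood at 50.5, 52.7 and 51.96 FPKM in the control libraries, 62.2, 55.5 and 62.6 in the HFD libraries and 63.02, 72.9 and 67.8 in the HFD+Pc libraries. Control lay lowest and HFD+Pc highest, with no overlap between groups. Gcsh rose in HFD+Pc against control (0.38 ± 0.086, limma adjusted p = 0.0131), a call lost without HFD+Pc replicate 3 (adjusted p 0.0542). A stretch of 523 bases, 36.2% of its transcript, matches the model Gm37201 at 90% identity or more, whose mean was 0.626 FPKM, so reads of Gcsh may be divided by the counting. Dld, the subunit shared with the branched-chain complex, rose in that comparison as given above. The remaining subunits were not called: Gldc, the glycine decarboxylase, had 50.9 ± 6.93 FPKM in control, 48.3 ± 5.44 in HFD and 50.3 ± 3.87 in HFD+Pc, and Amt, the aminomethyltransferase, had 18.3 ± 0.478 FPKM in control, 21.3 ± 0.612 in HFD and 20.3 ± 1.44 in HFD+Pc. Amt lay higher in all HFD libraries than in all control libraries (0.21 ± 0.073, limma adjusted p = 0.105).

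In the sulfur route 0 of 3 enzymes passed in HFD against control, beside 9.97% of all tested genes. In HFD+Pc against control 1 fell, beside 11.9% of all tested genes called lower. Cdo1, the cysteine dioxygenase that starts taurine synthesis, stood at 1048, 1054 and 1073 FPKM in the control libraries, 960.4, 928 and 892 in the HFD libraries and 877, 751 and 877 in the HFD+Pc libraries. The control libraries were highest and closest together, HFD lay in the middle and HFD+Pc lowest, with no overlap between groups. Cdo1 fell in HFD+Pc against control (-0.35 ± 0.10, limma adjusted p = 0.0352), to 78.9% of the control mean. The call held in 4 of the 9 fits, those without one of the HFD libraries or without HFD+Pc replicate 1, and was lost without any one control library or without HFD+Pc replicate 3 or 4 (adjusted p up to 0.136). Cbs, the first enzyme of transsulfuration, had 53.5 ± 4.14 FPKM in control, 49.00 ± 2.96 in HFD and 53.3 ± 8.39 in HFD+Pc. Cth, which follows it and releases cysteine, had 227 ± 39.2 FPKM in control, 177 ± 5.48 in HFD and 175 ± 24.9 in HFD+Pc, with its highest value, 269.5 FPKM, in control replicate 2. The difference of Cth from control was -0.35 ± 0.14, limma adjusted p = 0.144, in HFD and -0.36 ± 0.14, limma adjusted p = 0.0876, in HFD+Pc, neither called.

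In the proline route 1 of 3 enzymes fell in HFD+Pc against control, beside 11.9% of all tested genes called lower. In HFD against control 0 passed, beside 9.97% of all tested genes. Prodh, proline dehydrogenase, stood at 26.7, 22.8 and 28.1 FPKM in the control libraries, 18.1, 23.3 and 22.6 in the HFD libraries and 17.8, 21.5 and 19.5 in the HFD+Pc libraries. HFD+Pc lay under control without overlap, and HFD overlapped both. Prodh fell in HFD+Pc against control (-0.38 ± 0.12, limma adjusted p = 0.0465), a call that held in 2 of the 9 fits, those without control replicate 2 or HFD replicate 1, with adjusted p up to 0.133. Prodh2, which oxidises hydroxyproline, had 73.7 ± 8.71 FPKM in control, 81.04 ± 3.52 in HFD and 80.3 ± 13.4 in HFD+Pc. Aldh4a1, the dehydrogenase of the second step of both, had 39.3 ± 4.85 FPKM in control, 42.4 ± 0.544 in HFD and 49.8 ± 7.42 in HFD+Pc, with HFD+Pc replicates 3 and 4 above all other libraries and HFD+Pc replicate 1 inside the control range. The HFD+Pc against control difference of Aldh4a1, 0.33 ± 0.12, limma adjusted p = 0.0813, passed in 1 of the 9 fits that left out 1 library, the one without HFD+Pc replicate 1. Array weights, quantile normalization and limma-voom called this difference as well (adjusted p 0.0288, 0.0423 and 0.0420). Aldh4a1 shares 32.5% of its exon bases with the same-strand model Gm21969, whose mean was 0.0142 FPKM.

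Lysine breakdown was represented by Aass, the bifunctional enzyme of its first steps, which stood at 134, 149 and 149 FPKM in the control libraries, 104, 108 and 146 in the HFD libraries and 128, 127 and 104 in the HFD+Pc libraries. HFD replicate 3 lay with the control libraries, and the other HFD libraries and HFD+Pc replicate 4 were lowest. Against control, Aass differed by -0.28 ± 0.14, limma adjusted p = 0.225, in HFD, by -0.43 with adjusted p 0.06998 without HFD replicate 3 (range over all alternatives 0.06998 to 0.464), and by -0.27 ± 0.14, limma adjusted p = 0.192, in HFD+Pc. None passed.

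**Figure D4:**
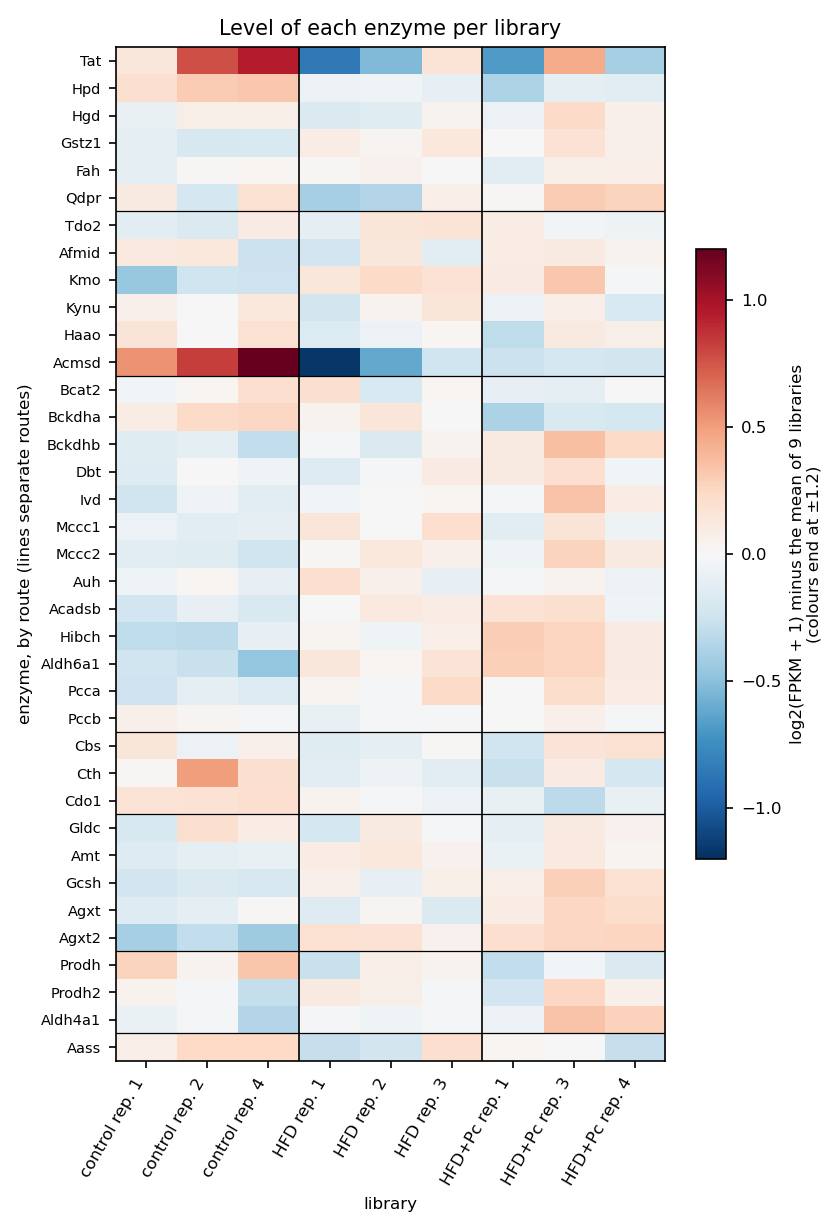
Level of each of the 37 enzymes in each of the 9 libraries, as log2(FPKM + 1) minus its mean over the 9 libraries, with enzymes in rows by route and libraries in columns by group. Acmsd and Tat show the widest range, and HFD replicate 3 differs from HFD replicates 1 and 2 most visibly for Tat, Qdpr, Acmsd and Aass.

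Beyond the 37, 90 other genes of amino acid pathways were listed and 81 were tested. Most belong to the routes above, and the lists of histidine (4 genes) and of alanine, aspartate and glutamate (9 genes) do not. In HFD against control 7 rose and 9 fell (19.8% called), beside 9.97% of all tested genes. In HFD+Pc against HFD limma called 0, beside 0.628%, and 14 (17.3%) had an unadjusted p under 0.05, beside 15.6%. In HFD+Pc against control 9 rose and 15 fell (29.6% called), beside 23.1% of all tested genes. Mat1a, which makes S-adenosylmethionine, fell in HFD from 1841 ± 223 to 1088 ± 128 FPKM (-0.76 ± 0.13, limma adjusted p = 0.0133). Likewise Ahcy, which clears S-adenosylhomocysteine, fell from 938 ± 100.3 to 612 ± 10.2 FPKM (-0.61 ± 0.10, limma adjusted p = 0.0122). Aldh1b1, a mitochondrial aldehyde dehydrogenase, fell from 26.9 ± 3.92 to 12.9 ± 2.32 FPKM (-1.004 ± 0.15, limma adjusted p = 0.00822). Aldh1b1 and Sdsl, a serine dehydratase relative that also fell (-0.89 ± 0.18, limma adjusted p = 0.0214), are among the 10 periportal markers. Btd, the biotinidase that recycles the cofactor of the carboxylases, fell by 0.52 on the log2 scale (limma adjusted p = 0.0138). The calls of Mat1a, Ahcy and Aldh1b1 held in all 9 fits that left out 1 library. That of Sdsl was lost without control replicate 1 or 4 or HFD replicate 1 or 2 (adjusted p up to 0.05996), and that of Btd without control replicate 1 (0.0502). Mat1a, Ahcy, Aldh1b1, Sdsl and Btd were called lower in HFD+Pc against control as well.

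The other rises in HFD with the lowest adjusted p were those of Srr, serine racemase (0.56 ± 0.073, limma adjusted p = 0.00538), Ido2, a second tryptophan dioxygenase (0.69 ± 0.13, limma adjusted p = 0.0148), Aspa, aspartoacylase (0.45 ± 0.084, limma adjusted p = 0.0162), and Hao1, glycolate oxidase, which makes the glyoxylate that Agxt removes (0.47 ± 0.10, limma adjusted p = 0.0222). The call of Srr held in all 9 fits. That of Ido2 was lost without control replicate 1 or 2 (adjusted p up to 0.0522), that of Aspa without control replicate 2 (0.0573), and that of Hao1 without any one control library or without HFD replicate 2 or 3 (up to 0.0765). Aspa (0.39 ± 0.084, limma adjusted p = 0.0111) and Ido2 (0.55 ± 0.13, limma adjusted p = 0.0144) rose in HFD+Pc against control as well, Ido2 not without control replicate 2 (adjusted p 0.0522). Srr was also called higher in that comparison, and Hao1 was not called. In HFD+Pc against control Hadh, a hydroxyacyl-CoA dehydrogenase, rose from 67.2 ± 3.48 to 106 ± 5.53 FPKM (0.65 ± 0.094, limma adjusted p = 0.00302). Etfb, the electron carrier subunit that takes electrons from Ivd and Acadsb, fell from 20.8 ± 2.45 to 6.68 ± 0.981 FPKM (-1.50 ± 0.17, limma adjusted p = 0.00148). Sds, serine dehydratase and another periportal marker, fell from 94.9 ± 15.7 to 35.1 ± 7.65 FPKM (-1.42 ± 0.25, limma adjusted p = 0.00598). Gchfr, the feedback regulator of tetrahydrobiopterin synthesis, fell from 144 ± 9.67 to 94.5 ± 8.88 FPKM (-0.61 ± 0.11, limma adjusted p = 0.00544). The calls of Hadh, Etfb, Sds and Gchfr held in all 9 fits that left out 1 library. Of these, Etfb was also called lower in HFD against control, at 12.9 ± 3.05 FPKM in HFD.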

How the data were processed

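The authors deposited FPKM values per gene, per the file headers, from liver total RNA libraries. Alignment used HISAT2 2.0.5 with GRCm39, per the submitters' processing notes. The counting tool, annotation and strandedness are not given in the sources used here. Whole read numbers could be recovered from the FPKM (tolerance 0.02) for 25356 of 25831 genes (98.2%). The divisor behind the FPKM was 99.1% to 110.3% of the recovered total of a library.

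Genes reaching 1 FPKM in 3 or more libraries entered limma 3.58.1 in R 4.3.3 as log2(FPKM + 1), with lmFit and then eBayes (trend, robust). All 9 libraries entered 1 model with 1 mean per group and no covariate, and the Benjamini-Hochberg threshold was 0.05. The log scale with this pseudocount understates changes of low genes. Replicate numbers were not used for pairing. Tables were made with Python 3.11.15, and the limma fit of HFD against control was tested on simulated data. Other transcripts sharing 100 or more bases at 90% identity were found with BLAST 2.17.0+.

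The enzymes and lists were chosen with earlier results of these data known. Every enzyme of the list is named. Of other pathway genes, regulators and carriers, up to 5 per direction and comparison with the lowest adjusted p are named, plus Bckdk, Ppm1k, Dld, Klf15, Nr3c1, Gcgr, Hnf4a, Cebpa, Cebpb, Ppargc1a and Fgf21. Another gene of that rule and the promoter of another enzyme are not reported here. Alternatives were other pseudocounts, filters, scalings, variance estimates, library weights, fits of 2 groups, each library left out, and a replicate block. Limma-voom on recovered reads, without rescaling of library totals, was added after the data were seen.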

Additional observations from a re-analysis of the deposited data

How the results depend on the processing

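For the enzymes, limma called 4 in the first comparison (HFD against control), 0 in the second (HFD+Pc against HFD) and 12 in the third (HFD+Pc against control). In the first the count was 2 with no filter on low values and 12 with limma-voom on recovered reads, and it was 2 to 4 when 1 library was left out. In the second it was 0 in every fit that left out 1 library and 1 with limma-voom. In the third it was 6 to 14 when 1 library was left out. There 9 of the 12 held with no filter on low values. Array weights called 11 of the 12 and also Agxt, Aldh4a1, Gstz1, Ivd, Mccc2 and Pcca. Limma-voom called all 12 and also Aldh4a1, Cth, Mccc2 and Pcca. Quantile normalization called 11 of the 12 and also Aldh4a1, Cth, Ivd and Mccc2. Over all genes the main counts were 1095, 69 and 2538. For the first comparison 725 genes passed with a filter of 0.1 FPKM, 209 with no filter, 680 in a fit of the 2 groups alone and 1421 with limma-voom. For the second, 27 passed with a filter of 0.1 FPKM, 3 with no filter, 113 with FPKM rescaled to an equal sum per library, 107 with quantile normalization, 30 without trend and robust estimation, 186 with array weights, 22 in a fit of the 2 groups and 179 with limma-voom. For the third, 1383 passed with no filter. Leaving out 1 library gave 332 to 1126, 5 to 123 and 1396 to 2644 genes. The cause of these differences was not tested.

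Deviations from the group means correlated at -0.12 to 0.053 in the 6 same-numbered pairs of libraries and at -0.11 to 0.14 in the 21 other pairs. These values gave no sign of pairing by replicate number, but 6 pairs are too few to decide on it. With the replicate block 2 enzymes, Acmsd and Tat, passed in HFD against control and 0 in HFD+Pc against HFD. In HFD+Pc against control 5 passed, Acmsd, Agxt2, Aldh6a1, Bckdha and Tat. Thus 1 of the 4 and 4 of the 12 calls of the main fit held. Over all genes 232, 3 and 1058 passed. No called enzyme changed direction in any alternative. Of all 2331 alternative values of the enzymes 95 differed in sign from the main fit, all of them values that had not passed. The enzymes with the fewest recovered reads in a library were Acmsd with 204, Bcat2 with 243 and Auh with 471.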

Other observations

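Of 26 listed regulators of these genes and amino acid carriers, limma called 0 in HFD against control and 0 in HFD+Pc against HFD. An unadjusted p under 0.05 was reached by 8 (30.8%) and 5 (19.2%), beside 27.8% and 15.6% of all tested genes. In HFD+Pc against control 6 fell and 0 rose (23.1% called), beside 23.1% of all tested genes called and 11.9% called lower. Cebpb, a stress-responsive C/EBP factor, fell from 67.3 ± 10.7 to 29.9 ± 7.01 FPKM (-1.15 ± 0.20, limma adjusted p = 0.00568). Atf4, a factor of the amino acid response, fell from 33.4 ± 4.61 to 18.6 ± 2.45 FPKM (-0.81 ± 0.13, limma adjusted p = 0.003599). The hepatocyte nuclear receptor Hnf4a fell from 115 ± 10.4 to 81.6 ± 3.73 FPKM (-0.48 ± 0.11, limma adjusted p = 0.0135). Their 3 calls held in all 9 fits that left out 1 library. The glucocorticoid receptor Nr3c1 at 0.25, the glucagon receptor Gcgr at 0.14, Klf15 at -0.15, Cebpa at -0.29, Ppargc1a at -0.26 and Fgf21 at -0.36 did not pass in that comparison, and neither did any of them in HFD against control. All 4 enzymes of histidine breakdown were tested, and limma called 0 of them in each comparison, also with 0 at an unadjusted p under 0.05. Over all tested genes 9.97%, 0.628% and 23.1% were called in the 3 comparisons, and 27.8%, 15.6% and 38.2% had such a p.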
